A study of Mus musculus with 9 samples.

Results

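The genes described here are 54 cell cycle and DNA replication genes of the mouse, taken from a fixed list of 15 regulators of the step from G1 into S phase, 16 replication genes and 23 genes of G2 and mitosis, out of 18194 genes measured. A gene was read from the probe set (a group of probes on the array that answers to 1 transcript region) that carried its symbol alone and had the highest mean over the 9 arrays. That gave a value for 53 of the 54, and 50 passed the filter on low signal, while Ccnb1 had no probe set carrying its symbol alone and is not analysed here. Tissue came from male C57Bl6 mice aged 12 months that were untreated and ate regular chow. Wild-type liver was 3 pieces from 1 wild-type mouse, diagnosed as normal with mild steatosis (fat in the liver cells). Adjacent liver was 3 pieces from outside the tumor in 1 mouse labelled SART1+/-, heterozygous for a gene whose product is a splicing factor, and was diagnosed as cellular alteration with severe steatosis. Tumor was 3 pieces of a spontaneous growth in the liver of that same mouse, diagnosed as hepatocellular carcinoma with severe steatosis. Each piece went on 1 array. Since every group came from 1 animal, p-values measure the spread between pieces, and the genotype cannot be told apart from other differences between the 2 mice.

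Adult hepatocytes rest outside the cycle and re-enter it after injury, loss of tissue or transformation. D-type cyclins with Cdk4 and Cdk6, then cyclin E with Cdk2, release E2F factors from the pocket proteins Rb1 and Rbl1, and E2F factors switch on the replication genes. Later, a complex of B-Myb, FoxM1 and the MuvB core acts on mitotic genes through an element called CHR (cell cycle genes homology region), often placed beside CCAAT boxes that bind NF-Y. In resting cells the DREAM complex, built on the same MuvB core, holds both groups of genes down.

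Promoter sequences are shown for 6 members because these are the stretches through which the replication and mitotic genes are known to be switched. They are RefSeq sequences of GRCm38.p6, written 5′ to 3′ on the gene's strand over 200 bases, 150 before the start of the transcript and 50 after it. Capitals mark every match on either strand to the CHR (TTTGAA or TTCGAA), the CCAAT box (CCAAT) or an E2F site (TTTCCCGC, TTTGGCGC, TTTCGCGC or TTTGCCGC), with overlapping matches run together. The first set is 3 mitotic genes that were higher in adjacent liver and tumor than in wild-type liver: Ccnb2 at chr9:70421505-70421704, Cdc20 at chr4:118437294-118437493 and Cdk1 at chr10:69352863-69353062, all on the minus strand.
Ccnb2: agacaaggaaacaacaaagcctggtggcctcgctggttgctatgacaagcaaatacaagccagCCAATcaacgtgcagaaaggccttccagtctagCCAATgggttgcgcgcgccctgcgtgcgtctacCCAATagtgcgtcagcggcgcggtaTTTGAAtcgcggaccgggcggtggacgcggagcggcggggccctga
Cdc20: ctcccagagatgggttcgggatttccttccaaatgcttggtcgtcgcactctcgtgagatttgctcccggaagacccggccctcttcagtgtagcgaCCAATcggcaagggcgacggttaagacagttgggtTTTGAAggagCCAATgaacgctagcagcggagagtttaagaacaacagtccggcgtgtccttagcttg
Cdk1: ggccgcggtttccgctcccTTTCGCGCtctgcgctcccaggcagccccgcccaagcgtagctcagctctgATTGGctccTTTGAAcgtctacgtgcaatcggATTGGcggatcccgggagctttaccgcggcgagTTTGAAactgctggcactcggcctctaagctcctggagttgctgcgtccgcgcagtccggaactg
The second set is 3 replication genes, of which Mcm6 (chr1:128359656-128359855, minus strand) and Cdt1 (chr8:122567865-122568064, plus strand) were higher and Mcm10 (chr2:5012742-5012941, minus strand) was lower.
Mcm6: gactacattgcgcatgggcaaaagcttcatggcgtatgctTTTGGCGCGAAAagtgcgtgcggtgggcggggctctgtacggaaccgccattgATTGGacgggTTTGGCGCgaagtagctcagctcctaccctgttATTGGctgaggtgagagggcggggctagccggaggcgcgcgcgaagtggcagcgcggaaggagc
Cdt1: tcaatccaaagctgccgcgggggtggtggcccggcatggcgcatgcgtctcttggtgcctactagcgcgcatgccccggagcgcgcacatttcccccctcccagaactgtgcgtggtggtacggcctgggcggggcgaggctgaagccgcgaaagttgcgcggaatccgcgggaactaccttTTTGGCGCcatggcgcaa
Mcm10: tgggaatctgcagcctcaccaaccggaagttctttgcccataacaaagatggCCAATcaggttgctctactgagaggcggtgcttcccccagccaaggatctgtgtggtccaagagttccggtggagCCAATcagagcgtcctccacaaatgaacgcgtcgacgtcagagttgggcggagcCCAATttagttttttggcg

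Of the 54 members, 41 had a RefSeq promoter of 300 bases, which begins 250 bases before the start. Of the mitotic members, 12 of 17 held a CHR (70.6%), against 21.7% of the 27025 genes with a promoter, and 15 of 17 held a CCAAT box (88.2%), against 41.1%. The E2F words were in 6 of 13 replication promoters (46.2%), in 3 of 11 promoters of G1/S regulators (27.3%) and in 1 of 17 mitotic promoters (5.88%), against 2.6% of all genes. The CHR was in 2 of 13 replication promoters and in 2 of 11 of the G1/S regulators. A CCAAT box was in 9 of 13 replication promoters (69.2%) and in 6 of 11 of the G1/S regulators (54.5%), so it was not particular to the mitotic members. Among the members 1 pair of different motifs overlapped, an E2F word and a CCAAT box of Mcm7. In the wider lists of the same pathways, 36 of 50 other mitotic genes held a CHR (72.0%) and 12 of 35 other replication genes an E2F word (34.3%). A match describes the letters of the window and is no evidence of binding in these tissues.

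Values are log2 levels, on which a difference of 1 is 2-fold. All arrays within a group correlated at 0.996 or more (Pearson's r over 45101 probe sets). Sart1, the targeted gene, read 8.35, 8.32 and 8.36 on the wild-type arrays, 8.34, 8.39 and 8.38 on the adjacent arrays and 7.77, 7.71 and 7.75 on the tumor arrays. The tumor level differed from the wild-type one by -0.60 (SE 0.05, limma adjusted p = 2.61e-06), while adjacent liver differed from wild-type liver by 0.03 (adjusted p = 0.678). No source used here says whether this probe set lies in the deleted stretch, so the value does not check the label of the adjacent liver. The hepatocyte marker Alb had group means of 14.45, 14.49 and 14.45 in the order wild type, adjacent, tumor, and Apoa1 of 14.26, 14.27 and 14.41, so hepatocyte RNA was present in all 3 groups. Its amount was not shown to be equal. Of 8 hepatocyte markers tested, 2 were called lower in tumor and 1 in adjacent liver, with median differences from wild-type liver of -0.10 and -0.14. The log2 signal of the Actb 3′ probe set minus that of its 5′ one, which grows as RNA breaks, averaged 0.86 ± 0.02 on the wild-type arrays, 0.85 ± 0.05 on the adjacent arrays and 0.59 ± 0.09 on the tumor arrays (SD, n = 3). The same measure of Gapdh averaged 0.27 ± 0.02, 0.16 ± 0.02 and 0.21 ± 0.01 in that order, and the signal of the 18S rRNA probe set 7.75 ± 0.73, 6.43 ± 0.22 and 6.52 ± 0.02. The part of these in the differences was not tested.

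Against wild-type liver, most mitotic members rose in both the tumor and the adjacent liver, among them Cdk1, Mki67, Cdc20 and Plk1. Fewer replication members and G1/S regulators passed the test. Mcm10 fell in both tissues and Tk1 in tumor. A call needed a limma adjusted p under 0.05 together with a log2 difference of 1 or more in size. For tumor against wild-type liver, 25 of 50 tested members were called higher and 2 lower, where 8.41% of all 13888 genes tested were called higher and 4.59% lower. For adjacent liver against wild-type liver the counts were 30 higher and 1 lower, where 8.29% and 3.22% of all genes were called. By role, calls higher in tumor were 5 of 14 G1/S regulators, 3 of 14 replication members and 17 of 22 mitotic members. In adjacent liver they were 5 of 14, 7 of 14 and 18 of 22. Over the 53 measured members, the median log2 difference of tumor from wild-type liver was 0.65 for G1/S regulators, 0.70 for replication members and 1.68 for mitotic members, and that of adjacent liver was 0.66, 1.01 and 1.77. The median over all genes tested was -0.01 in both comparisons. At an adjusted p under 0.05 with no minimum size, 38 members were higher and 6 lower in tumor, against 33.2% and 30.2% of all genes, and 43 and 2 in adjacent liver, against 34% and 28.9%.

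**Figure D1:**
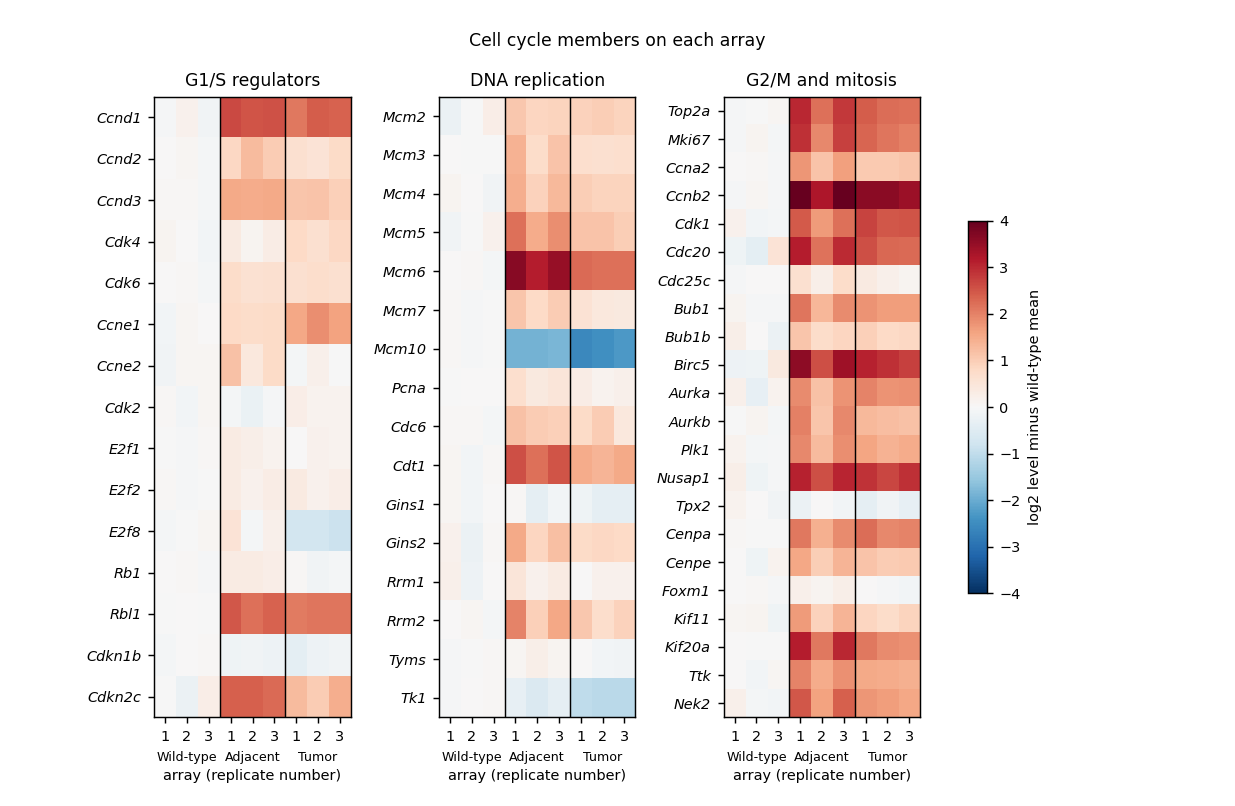
Log2 level of the 53 measured members on each of the 9 arrays minus the member's wild-type mean, in 3 panels by role, with replicate numbers along the horizontal axis and colour from blue (below) to red (above). Most mitotic members are red on all 6 arrays of the SART1+/- mouse, Mcm10 is blue on all 6, and the second adjacent array is paler than its neighbours in the mitotic panel.

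Of the 50 tested members, 10 passed the filter only through adjacent liver or tumor, since they lay below the 40th percentile on every wild-type array. They were E2f2, Rbl1, Top2a, Ccnb2, Bub1, Birc5, Aurkb, Nusap1, Cenpe and Ttk, so a high level in the SART1+/- mouse was what let them be tested. By role they were 2 of 14 G1/S regulators, 0 of 14 replication members and 8 of 22 mitotic members. All but E2f2 were called higher in both tissues, so the counts of calls by role include members let in by that high level. With no filter, so that all 53 measured members were tested, 25 were called higher and 2 lower in tumor, against 6.47% and 3.54% of 18194 genes. In adjacent liver 31 were then called higher, Cdc6 being the addition, and 1 lower, against 6.4% and 2.5%. A level below that percentile was taken as not told from background, so the differences of these members from wild-type liver depend on the background and their sizes do not rank them. Fewer cycling cells and less RNA per cycling cell cannot be told apart in whole tissue.

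Among the D-type cyclins, which start the passage through G1, Ccnd1 and Ccnd3 rose in both tissues of the SART1+/- mouse. Ccnd1 read 7.96, 8.20 and 7.89 on the wild-type arrays, 10.65, 10.55 and 10.56 on the adjacent arrays and 10.13, 10.43 and 10.37 on the tumor arrays. All 6 arrays of the SART1+/- mouse lay above the 3 wild-type arrays, by 4.91-fold in tumor (log2 difference 2.29, SE 0.10, limma adjusted p = 1.24e-08) and 5.94-fold in adjacent liver (2.57, adjusted p = 7.44e-09). Both other probe sets of Ccnd1 were also called higher in tumor (2.68 and 2.17) and in adjacent liver (2.88 and 2.06). Ccnd3 read 8.54, 8.52 and 8.40 on the wild-type arrays, 9.99, 9.97 and 10.00 on the adjacent arrays and 9.60, 9.63 and 9.44 on the tumor arrays. The 3 groups did not overlap, and the differences were 1.08 (adjusted p = 2.22e-07) for tumor and 1.5 (adjusted p = 2.45e-08) for adjacent liver. Its other probe sets differed by -0.16 and 0.20 in tumor and by -0.33 and 0.04 in adjacent liver, none of them called, and with the mean of the probe sets Ccnd3 lost its calls (0.37 and 0.41). Ccnd2 was called in adjacent liver (1.04) and not in tumor (0.65).

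The kinases that D-type cyclins activate differed by less than 2-fold. Cdk4 differed from wild-type liver by 0.76 in tumor and 0.26 in adjacent liver, and Cdk6 by 0.66 in each. Ccne1, cyclin E1, the partner of Cdk2 at the entry to S phase, rose in tumor. Its levels were 6.68, 6.87 and 6.82 on the wild-type arrays, 7.58, 7.52 and 7.54 on the adjacent arrays and 8.34, 8.66 and 8.39 on the tumor arrays. The 3 groups did not overlap, with adjacent liver between the others. Its difference from wild-type liver was 1.67 in tumor (3.19-fold, SE 0.09, limma adjusted p = 6.08e-08) and 0.76 in adjacent liver (adjusted p = 2.76e-05), which stayed under 2-fold. Ccne2 lay below the filter, at 3.49, 3.70 and 3.71 on the wild-type arrays, 4.81, 4.07 and 4.41 on the adjacent arrays and 3.55, 3.82 and 3.61 on the tumor arrays. Cdk2 differed by 0.18 in tumor and -0.14 in adjacent liver.

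The E2F factors and pocket proteins differed among themselves. The activators E2f1 and E2f2 differed from wild-type liver by 0.12 to 0.27 in both tissues and were not called. E2f8, an atypical E2F that represses E2F targets and is known from polyploid hepatocytes, read 5.62, 5.66 and 5.77 on the wild-type arrays, 6.23, 5.62 and 5.87 on the adjacent arrays and 4.95, 4.95 and 4.81 on the tumor arrays. Its tumor arrays lay below all others and below the 40th percentile, while wild-type and adjacent arrays overlapped. Against wild-type liver the tumor difference was -0.78 (adjusted p = 0.000328), short of 2-fold. Rbl1, the pocket protein p107, which E2F itself induces, read 4.70, 4.72 and 4.70 on the wild-type arrays, 7.19, 6.92 and 7.06 on the adjacent arrays and 6.80, 6.84 and 6.86 on the tumor arrays. The 6 arrays of the SART1+/- mouse all lay above wild-type liver, by 2.12 in tumor (SE 0.07, limma adjusted p = 2.02e-09) and 2.35 in adjacent liver (adjusted p = 1.66e-09). Its 3 other, dimmer probe sets differed by -0.26, 0.43 and 0.01 in tumor and were not called. Rb1, the retinoblastoma protein, differed by -0.07 in tumor and 0.31 in adjacent liver.

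Both inhibitors on the list were measured. Cdkn2c, the Cdk4 and Cdk6 inhibitor p18, read 6.97, 6.74 and 7.25 on the wild-type arrays, 9.37, 9.36 and 9.26 on the adjacent arrays and 8.25, 8.0 and 8.44 on the tumor arrays. The 3 groups did not overlap, and adjacent liver was highest. The differences from wild-type liver were 2.35 in adjacent liver (5.09-fold, SE 0.13, limma adjusted p = 1.39e-07) and 1.24 in tumor (2.36-fold, adjusted p = 1.41e-05). Cdkn1b, the inhibitor p27, read 7.02, 7.11 and 7.14 on the wild-type arrays, 6.92, 6.94 and 6.88 on the adjacent arrays and 6.70, 6.89 and 6.94 on the tumor arrays. Its wild-type arrays were the highest, by small amounts, and neither difference was called (-0.25 in tumor and -0.17 in adjacent liver). A second, dimmer probe set of Cdkn1b was called lower in adjacent liver, at -1.07.

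**Figure D2:**
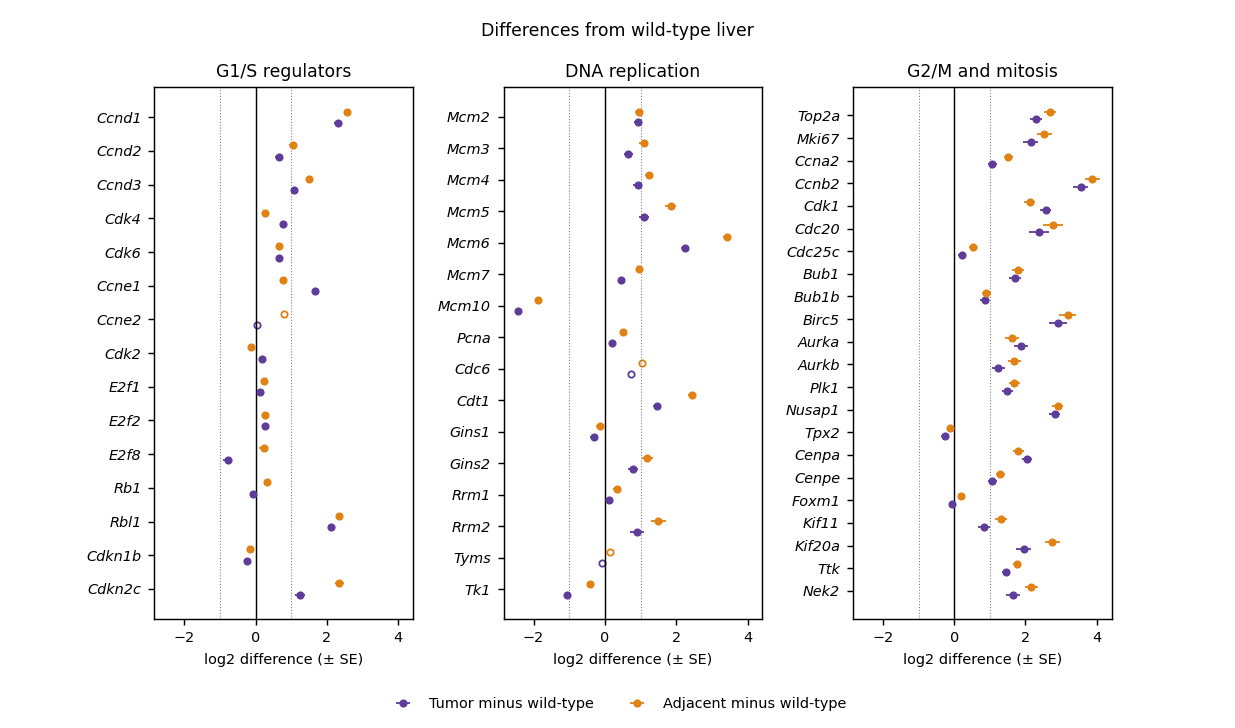
Log2 difference from wild-type liver (horizontal axis, ± SE of the fit) of every measured member in tumor (purple) and adjacent liver (orange), in 3 panels by role, with open points for the 3 members not tested and dotted lines at -1 and 1. In the mitotic panel 17 members lie right of the line at 1 in tumor and 18 in adjacent liver, while Mcm10 lies at -2.44 and -1.87 and Tk1 at -1.05 and -0.42.

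The replication members comprise the helicase subunits Mcm2 to Mcm7, the factors that load and start the helicase, the clamp Pcna and the enzymes of nucleotide supply. Mcm6, a helicase subunit, read 6.42, 6.46 and 6.34 on the wild-type arrays, 10.04, 9.56 and 9.88 on the adjacent arrays and 8.67, 8.63 and 8.62 on the tumor arrays. No groups overlapped, and adjacent liver was highest on all 3 arrays. The difference from wild-type liver was 3.42 in adjacent liver (10.7-fold, SE 0.10, limma adjusted p = 1.83e-09) and 2.23 in tumor (4.70-fold, adjusted p = 2.32e-08). A second probe set of Mcm6 gave 3.62 and 2.31 and a dim one 0.14 and 0.01. Mcm5 read 6.54, 6.63 and 6.82 on the wild-type arrays, 8.86, 8.14 and 8.52 on the adjacent arrays and 7.79, 7.82 and 7.65 on the tumor arrays. Its groups kept the same order without overlap, with differences of 1.84 in adjacent liver (adjusted p = 2.09e-06) and 1.09 in tumor (adjusted p = 9.73e-05). A second probe set of Mcm5 was also called (1.66 and 1.15) and a dim one gave 0.03 and -0.16, and with the mean of its probe sets the tumor difference was 0.70, short of a call. The other subunits ranged from 0.94 (Mcm2) to 1.23 (Mcm4) in adjacent liver and from 0.46 (Mcm7) to 0.92 (Mcm2 and Mcm4) in tumor, with Mcm3 and Mcm4 called in adjacent liver. A dimmer probe set of Mcm2 was called higher in both tissues, at 1.51 and 1.58. The other set of Mcm4 was also called in both (1.27 and 1.00). For Mcm3 another set was called in adjacent liver (1.07), and the rest were not (0.50, 0.64 and -0.17). The other sets of Mcm7 gave 0.69 to 0.76 in adjacent liver and 0.17 to 0.37 in tumor and were not called.

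Cdt1, which loads the helicase onto origins, followed the order of Mcm6. It read 6.47, 6.30 and 6.44 on the wild-type arrays, 8.99, 8.61 and 8.92 on the adjacent arrays and 7.88, 7.78 and 7.91 on the tumor arrays. The 3 groups did not overlap, and the differences were 2.44 in adjacent liver (SE 0.10, limma adjusted p = 1.02e-08) and 1.45 in tumor (adjusted p = 3.28e-07). One of its other probe sets was also called in both (1.92 and 1.09), the other was not (0.04 and -0.07), and with the mean of all probe sets the tumor difference was 0.82, short of a call. Cdc6, its partner in loading, lay below the filter, at 3.57, 3.57 and 3.45 on the wild-type arrays, 4.69, 4.55 and 4.49 on the adjacent arrays and 4.31, 4.55 and 3.95 on the tumor arrays. Of the GINS subunits, which activate the helicase, Gins2 was called in adjacent liver (1.19, against 0.80 in tumor) and Gins1 was not called (-0.14 and -0.30).

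Mcm10, which helps to open the loaded helicase, went the other way. It read 10.80, 10.73 and 10.75 on the wild-type arrays, 8.88, 8.88 and 8.92 on the adjacent arrays and 8.20, 8.30 and 8.46 on the tumor arrays. All wild-type arrays were highest and all tumor arrays lowest, with a fall of 5.44-fold in tumor (-2.44, SE 0.07, limma adjusted p = 7.86e-10) and 3.64-fold in adjacent liver (-1.87, adjusted p = 7.12e-09). The 2 dimmer probe sets of Mcm10 differed by -0.52 and -0.17 in tumor and by -0.54 and -0.17 in adjacent liver and were not called, so the size of the fall rests on 1 probe set. With the mean of the 3 the difference in adjacent liver was -0.86, short of a call.

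Pcna, the sliding clamp of the polymerases, read 10.49, 10.51 and 10.51 on the wild-type arrays, 11.16, 10.90 and 10.97 on the adjacent arrays and 10.79, 10.65 and 10.69 on the tumor arrays. Its groups did not overlap, but the differences of 0.51 in adjacent liver (limma adjusted p = 0.000138) and 0.21 in tumor (adjusted p = 0.0271) were under 2-fold. Tk1, thymidine kinase, which salvages thymidine for DNA synthesis, read 9.10, 9.16 and 9.18 on the wild-type arrays, 8.81, 8.58 and 8.80 on the adjacent arrays and 8.13, 8.07 and 8.08 on the tumor arrays. Wild-type liver was highest and tumor lowest without overlap, a fall of 2.08-fold in tumor (-1.05, SE 0.07, adjusted p = 3.46e-07) and a difference of -0.42 in adjacent liver (adjusted p = 0.000438). Rrm2, the regulated subunit of ribonucleotide reductase, was called in adjacent liver (1.49) and not in tumor (0.90), and its partner Rrm1 in neither (0.33 and 0.11). Tyms, thymidylate synthase, lay between 3.62 and 3.99 on all 9 arrays, below the filter.

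**Figure D3:**
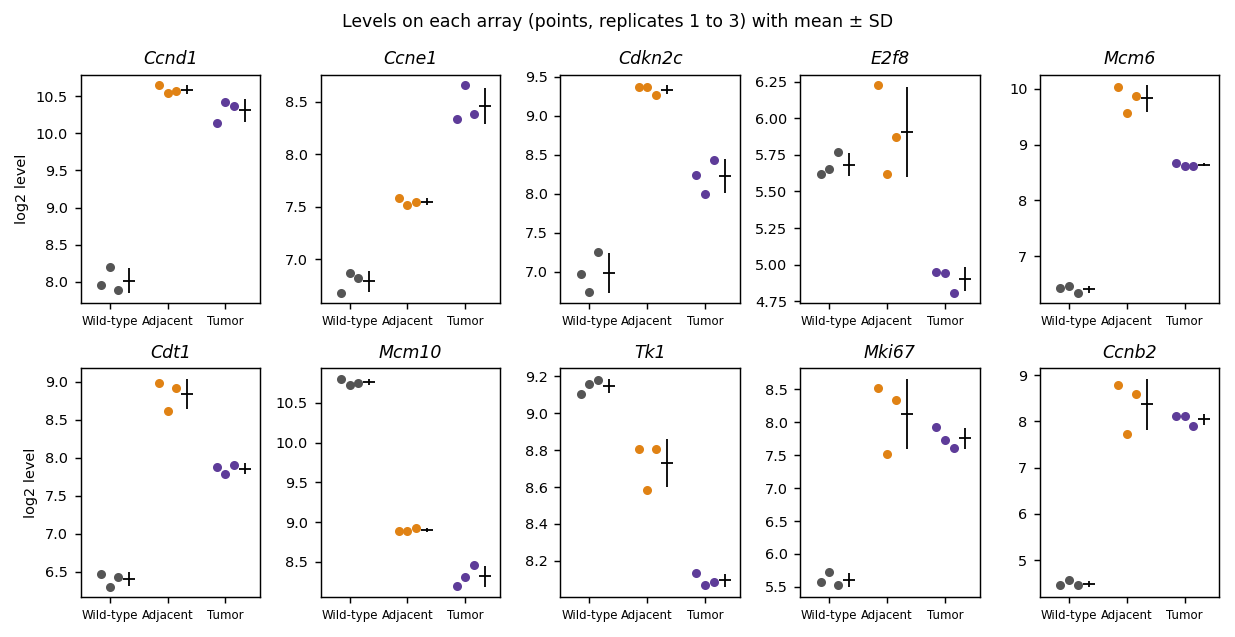
Log2 levels of 10 members on each array (points, replicates 1 to 3 from left to right) with the mean and SD of each group beside them, each panel with its own vertical axis. Mcm6, Cdt1 and Cdkn2c are highest in adjacent liver, Ccne1 is highest in tumor, Mcm10 and Tk1 are lowest in tumor, and the second adjacent array is the lowest of its group for Mki67 and Ccnb2.

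Among the mitotic members described next, Ccnb2, Top2a, Nusap1 and Ttk were below the 40th percentile on all wild-type arrays, and Cdk1 and Mki67 above it. Ccnb2, a cyclin of Cdk1, read 4.46, 4.56 and 4.46 on the wild-type arrays, 8.78, 7.73 and 8.58 on the adjacent arrays and 8.11, 8.11 and 7.90 on the tumor arrays. The SART1+/- arrays all lay above wild-type liver, with log2 differences of 3.55 in tumor (SE 0.21, limma adjusted p = 1.55e-07) and 3.87 in adjacent liver (adjusted p = 1.04e-07), and those of adjacent liver and tumor overlapped. Cdk1, the kinase that drives mitosis, read 6.34, 6.07 and 6.09 on the wild-type arrays, 8.61, 7.87 and 8.37 on the adjacent arrays and 8.87, 8.64 and 8.68 on the tumor arrays. It was the mitotic member with the largest excess of tumor over adjacent liver, and its differences from wild-type liver were 2.57 in tumor (adjusted p = 2.18e-07) and 2.12 in adjacent liver (adjusted p = 1.16e-06). Mki67, whose protein Ki-67 is the usual stain for cycling cells, read 5.57, 5.72 and 5.52 on the wild-type arrays, 8.52, 7.52 and 8.35 on the adjacent arrays and 7.93, 7.73 and 7.61 on the tumor arrays. Its SART1+/- arrays exceeded all wild-type arrays, by 4.44-fold in tumor (2.15, adjusted p = 6.69e-06) and 5.75-fold in adjacent liver (2.52, adjusted p = 2.31e-06).

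Top2a, the topoisomerase that untangles sister chromatids, read 4.80, 4.81 and 4.91 on the wild-type arrays, 7.87, 7.05 and 7.67 on the adjacent arrays and 7.28, 7.08 and 7.05 on the tumor arrays. Its differences were 2.29 in tumor (limma adjusted p = 7.52e-07) and 2.69 in adjacent liver (adjusted p = 2.81e-07), with no overlap with wild-type liver, while its other probe sets differed by 0.02 and -0.16 in tumor. With the mean of its probe sets Top2a was not called (0.72 and 0.75). Nusap1, a spindle protein that bundles microtubules, read 4.59, 4.17 and 4.29 on the wild-type arrays, 7.44, 6.94 and 7.39 on the adjacent arrays and 7.24, 7.01 and 7.26 on the tumor arrays. It rose by nearly the same amount in tumor (2.82, adjusted p = 5.23e-08) and adjacent liver (2.90, adjusted p = 5.56e-08). Its other, dimmer probe set differed by 0.04 in each and was not called. Ttk, the spindle checkpoint kinase Mps1, read 4.65, 4.54 and 4.71 on the wild-type arrays, 6.62, 6.10 and 6.45 on the adjacent arrays and 6.14, 6.11 and 6.04 on the tumor arrays. Here too the wild-type arrays were lowest, with differences of 1.46 in tumor (adjusted p = 1.14e-06) and 1.76 in adjacent liver (adjusted p = 3.45e-07). The other, dimmer probe set of Ttk differed by -0.07 in tumor and -0.09 in adjacent liver and was not called.

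The remaining mitotic members called in both tissues were 11, from 1.06 (Cenpe, a kinetochore motor) to 2.91 (Birc5, survivin, of the chromosomal passenger complex) in tumor. They were Ccna2, Cdc20, Bub1, Birc5, Aurka, Aurkb, Plk1, Cenpa, Cenpe, Kif20a and Nek2, and in adjacent liver they ranged from 1.29 (Cenpe) to 3.19 (Birc5). Of these, Bub1, Birc5, Aurkb and Cenpe were below the 40th percentile on all wild-type arrays, so their sizes depend on the background. Cdc20, the activator of the anaphase-promoting complex, differed by 2.38 in tumor and 2.77 in adjacent liver. Another probe set of Cdc20 was called in both tissues (3.28 and 3.65), and the remaining set in neither (-0.07 and -0.05). The other set of Ccna2 was called in both (1.59 and 1.96). No other probe set of Bub1 (-0.04 and 0.21), Aurka (-0.09 and -0.21), Aurkb (0.53 and 0.77) or Cenpe (0.53 and 0.12) was called. The same held for Cenpa (0.11 and -0.13, -0.29 and -0.27) and Nek2, with at most 0.64 in tumor and 0.99 in adjacent liver. Kif11, the motor that separates spindle poles, was called in adjacent liver (1.32) and not in tumor (0.83). A dimmer probe set of Kif11 was called higher in both tissues (1.17 in tumor and 1.70 in adjacent liver), and another in neither (0.10 and 0.59). Not called in either were Bub1b (0.85 in tumor and 0.90 in adjacent liver), Cdc25c (0.22 and 0.53), Tpx2 (-0.26 and -0.11) and Foxm1 (-0.05 and 0.19). For Bub1b, a dimmer probe set was called higher in both tissues (1.10 and 1.35), and another gave -0.08 and -0.13. For Tpx2, an activator of Aurora A, 2 dimmer probe sets were called higher in both tissues (1.10 and 1.27 in tumor, 1.19 and 1.61 in adjacent liver), and another gave -0.29 and -0.07. For Foxm1, the transcription factor of the mitotic programme, no probe set was called, and the largest difference of its 4 was 0.85, in adjacent liver.

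Tumor set against adjacent liver, both from the same mouse, gave 0 members called higher and 3 lower of 50, where 2.1% of all genes tested were called higher and 2.94% lower (1.64% and 2.29% with no filter, which left the members' counts at 0 and 3). At a limma adjusted p under 0.05 with no minimum size, 4 members were higher and 21 lower, against 20.1% and 25.1% of all genes. At an unadjusted p under 0.05 the counts were 4 and 27, against 23.2% and 27.8%. Of the 21, 10 were among the 14 replication members, 7 among the 14 G1/S regulators and 4 among the 22 mitotic members. The median difference over the measured members was -0.41 for replication, -0.22 for G1/S and -0.28 for mitosis, and -0.01 over all genes tested. Each replication member was lower in the tumor mean, from -0.02 (Mcm2) to -1.19 (Mcm6).

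The 3 members called lower were Mcm6 at -1.19 (2.28-fold, SE 0.10, limma adjusted p = 6.71e-06), Cdkn2c at -1.11 (2.15-fold, SE 0.13, adjusted p = 6.95e-05) and E2f8 at -1.0 (SE 0.13, adjusted p = 9.87e-05). For E2f8 all tumor arrays lay below the 40th percentile, so the size of its difference depends on the background. None of the 3 members had overlapping arrays between tumor and adjacent liver, but all were picked by a test on the same arrays. Mcm6 was lower on its second probe set as well (-1.31) and differed by -0.13 on its dim one, and the dimmer probe set of E2f8 gave -0.34. With the mean of probe sets both lost the call, at -0.88 for Mcm6 and -0.67 for E2f8. Without adjacent liver replicate 1 the difference of E2f8 was -0.84, without tumor replicate 3 it was -0.96, and without tumor replicate 2 that of Cdkn2c was -0.99, each under the minimum for a call. Cdt1 (-0.98, adjusted p = 1.57e-05), Mcm5 (-0.75, adjusted p = 0.00214), Tk1 (-0.64, adjusted p = 3.72e-05) and Mcm10 (-0.58, adjusted p = 7.35e-05) fell short of 2-fold, all without overlap.

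The 4 members higher in tumor by adjusted p alone were Ccne1, Cdk4, Cdk2 and Cdk1. Ccne1 differed by 0.91 (limma adjusted p = 1.43e-05) on the probe set used and by 1.19, past the minimum, on its other probe set. The kinases differed by 0.50 for Cdk4 (adjusted p = 0.000927), 0.32 for Cdk2 (adjusted p = 0.00677) and 0.45 for Cdk1 (adjusted p = 0.0422). No array of these 4 members overlapped between tumor and adjacent liver, but they too were picked by a test on the same arrays. The share of all genes without such overlap is not given here. For Ccnb2, Mki67, Top2a, Nusap1 and Ttk the arrays of tumor and adjacent liver overlapped, with differences from -0.08 to -0.39 and adjusted p from 0.0558 to 0.69.

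One array of adjacent liver stood apart for these genes. Replicate 2 was the lowest of the 3 adjacent arrays for 43 of 50 tested members (86%), against 44% of all 13888 genes tested. By role it was lowest for 21 of 22 mitotic, 13 of 14 replication and 9 of 14 G1/S members. The median of replicate 2 minus the mean of the other 2 arrays was -0.62 for mitotic members, -0.34 for replication members and -0.05 for G1/S regulators, and -0.02 for all genes. Mki67, at 7.52 against 8.52 and 8.35, and Ccnb2, at 7.73 against 8.78 and 8.58, show the size of the gap. The other mitotic genes of the pathway list moved with them on that array (47 of 53 lowest, median -0.51), and other replication genes less (29 of 40 lowest, median -0.18). On the same array, stellate cell and fibroblast markers were higher than on the other 2 (median 0.33, 1 of 8 lowest), T cell markers were higher (0.25, 0 of 8 lowest) and so were cholangiocyte markers (0.14, 1 of 5 lowest). Lower were the markers of endothelium (-0.19, 5 of 8 lowest), macrophages (-0.16, 5 of 10 lowest) and B and plasma cells (-0.13, 5 of 6 lowest), with neutrophil markers at -0.03 and erythroid markers at 0.03. Hepatocyte markers differed by 0.02, and the part of any of these in the pattern was not tested. Without that array, adjacent liver against wild-type liver gave 4 G1/S, 8 replication and 18 mitotic members called higher, Ccnd2 leaving and Mcm7 joining. Tumor against adjacent liver then gave 2 replication members called lower, Cdt1 joining at -1.10, and 1 mitotic member, Kif20a. The shares of all genes called without that array are not given here.

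**Figure D4:**
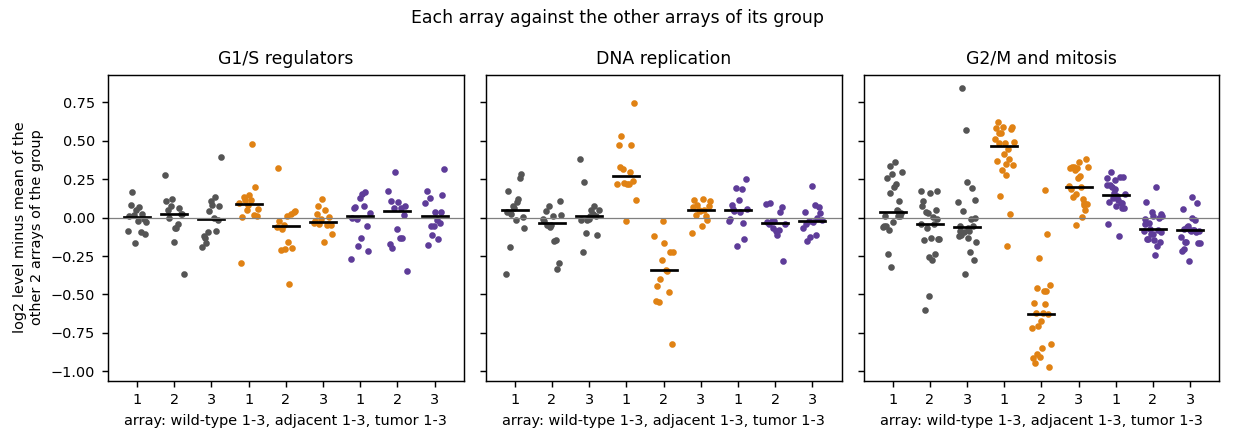
Each point is a tested member's log2 level on 1 array minus the mean of the other 2 arrays of its group (vertical axis), by role in 3 panels, with a black bar at the median. The second adjacent array lies lowest, with medians of -0.62 for mitotic and -0.34 for replication members, and the first tumor array has a median of 0.15 for mitotic members.

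Within the tumor the spread was smaller. Tumor replicate 1 was the highest of its group for 17 of 22 mitotic members (77.3%), against 40.3% of all genes tested. Its median was 0.15 above the other 2 arrays for mitotic members and 0.02 for all genes tested. Among the wild-type arrays the median largest in size for mitotic members was -0.06, on replicate 3.

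Other genes of the pathways came from 4 lists. For their counts at an unadjusted p under 0.05, either direction, the shares of all genes were 66.9% in tumor against wild-type liver, 66.7% in adjacent liver against wild-type liver and 51% in tumor against adjacent liver. For their calls, the shares of all genes tested were 8.41% higher and 4.59% lower in tumor against wild-type liver. Those shares were 8.29% and 3.22% in adjacent liver against wild-type liver, and 2.1% and 2.94% in tumor against adjacent liver. Of 19 other G1/S genes tested, tumor against wild-type liver had 5 called higher and 0 lower, and each of the other comparisons 3 higher and 0 lower. The inhibitor Cdkn2b (p15) had a mean of 6.33 on the wild-type arrays, 7.75 on the adjacent arrays and 10.84 on the tumor arrays. It was called higher in all 3 comparisons, at 4.51 (limma adjusted p = 1.29e-10), 1.42 (adjusted p = 5.78e-07) and 3.09 (adjusted p = 1.5e-08). Cdkn1a (p21) was called in tumor against wild-type liver (1.37), as was Ccng1, a p53 target (1.11), and Ccng1 and Cdkn2a (p16 and p19Arf) were called in tumor against adjacent liver (1.17 and 1.05). Cdkn2a lay below the 40th percentile on every wild-type and adjacent array. A high level in tumor was what let it be tested, and the size of its difference depends on the background. Myc, a transcription factor of growth, was called in tumor (1.76) and adjacent liver (1.59), and Cdc25a, a phosphatase that activates Cdk2, likewise (1.04 and 1.10).

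Of 40 other replication genes tested, 1 was called higher in tumor, 2 in adjacent liver and 0 lower, with medians of 0.22 and 0.39 against wild-type liver. Of all genes tested, 8.41% were called higher in tumor and 8.29% in adjacent liver. Lig1, the ligase that joins Okazaki fragments, differed by 1.44 in adjacent liver and 0.85 in tumor. Tumor against adjacent liver had 0 called by limma, 22 at an unadjusted p under 0.05, and a median of -0.21. Of 53 other mitotic genes tested, 20 were called higher and 2 lower in tumor, and 27 and 2 in adjacent liver, with medians of 0.81 and 1.02. In tumor against adjacent liver 0 were called and 19 had an unadjusted p under 0.05. Ube2c, an enzyme of the anaphase-promoting complex, differed by 2.70 and 2.37, Stmn1, a microtubule destabiliser, by 2.41 and 2.76, and Racgap1, of cytokinesis, by 2.00 and 2.18. Ccnf, an F-box protein of the cell cycle, was lower in both, by -2.07 and -1.34. Of the 6 tested genes of the DREAM repressor list, 0 were called by limma in any comparison, with 1, 1 and 3 at an unadjusted p under 0.05 in tumor, in adjacent liver and between them. Its tested MuvB members Lin37, Lin52, Lin54 and Rbbp4 differed from wild-type liver by at most 0.26 in size in both tissues, with Dyrk1a, a kinase that helps DREAM form, at -0.12 and 0.11. Below the filter lay Lin9, also of MuvB (0.42 in tumor and 0.46 in adjacent liver), Mybl1 (0.35 and 0.27) and Mybl2, B-Myb (0.01 and -0.13).

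Markers of other cells moved between the same groups, and their part in the results on the cell cycle genes was not tested. Against wild-type liver, 8.41% of all genes tested were called higher and 4.59% lower in tumor, and 8.29% and 3.22% in adjacent liver. Of 10 macrophage markers, 5 were called higher in tumor and 5 in adjacent liver, with 1 lower in adjacent liver (Marco). Their summed intensity ranged from 7695 to 8400 on the wild-type arrays, 17507 to 20076 on the adjacent arrays and 18843 to 22041 on the tumor arrays. For 8 stellate cell and fibroblast markers, 4 were higher and 1 (Lrat) lower in each tissue, with sums of 5228 to 7212, 8747 to 10950 and 8287 to 12386. Of the 6 neutrophil markers, S100a8 and S100a9 were higher in both tissues, and Mpo and Elane, which mark dividing precursors, differed by at most 0.10. The 8 T cell markers had 0 called in any comparison (2, 3 and 0 at an unadjusted p under 0.05), and their sums overlapped between wild-type liver (621 to 647) and adjacent liver (625 to 747). B and plasma cell markers summed to 480 to 514 on the wild-type arrays, 537 to 587 on the adjacent arrays and 1212 to 1664 on the tumor arrays, with Cd79b and Jchain called higher in tumor. Of 4 erythroid markers tested, 2 were called lower in tumor and 1 in adjacent liver. Endothelium had 1 of 8 called higher in tumor, and 1 higher and 1 lower in adjacent liver, cholangiocytes 0 and 1 of 5 higher, and hepatocyte markers 2 and 1 of 8 lower. RMA values hold no zeros, so no marker is at 0.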

How the data were processed

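Affymetrix 3′ expression arrays with 1 colour measured RNA of 9 tissue pieces. Per the submitters' processing notes, the authors ran RMA with Affymetrix Expression Console 1.3.1.187, which gave the deposited log2 values per probe set. This method equalises the distributions of the arrays, so a change that moves most genes one way would not show. Scan dates were not known here, and group and any batch cannot then be told apart, and 3 arrays a group limit the precision.

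Of 45101 probe sets, 34958 carried 1 symbol in the platform's annotation table, 932 several and 9211 none. Only those with 1 symbol were used, and 42 members had several, 131 probe sets in all. Testing required signal over an array's 40th percentile on 3 or more of the 9 arrays. Differences were fitted with limma 3.58.1 in R 4.3.3 (lmFit and eBayes, 1 mean per group, 6 residual degrees of freedom) with Benjamini-Hochberg adjustment over all 13888 genes tested. Differences on single probe sets other than the one used were adjusted over all 34958 probe sets. All adjusted p-values are limma's. The fit was tested on simulated data.

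Members, lists and tests were chosen with earlier results of these data known. Values on every array are given for the 5 members of each role with the smallest adjusted p among those called, all called lower, and Ccnd1, Cdkn1b, Mki67, Pcna and Cdk1 whatever their result, with the 3 untested members added. Of each other pathway list up to 4 tested genes with the smallest adjusted p per comparison could be named. The alternatives numbered 21. RefSeq symbols of GRCm38.p6 matched 53 members, and 3 older symbols of the lists were updated through its synonyms.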

Additional observations from a re-analysis of the deposited data

Results flagged for a closer look

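The change from wild-type liver differed between tumor and adjacent liver for 3 members, by the fitted difference of the tissues (limma, adjusted over 13888 genes). Mcm6 rose less in tumor, by -1.19, Cdkn2c rose less in tumor, by -1.11, and E2f8 was lower in tumor with overlapping wild-type and adjacent arrays, a difference of -1.0 that depends on the background, since the tumor arrays lay below the 40th percentile.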

How the results depend on the processing

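Across 21 alternatives no called member with values on every array reversed its direction. Of their values tested under an alternative, 21 lost a call, 23 gained one and 1141 did neither. Values left untested under an alternative, and any call lost in that way, are not in these counts. With no minimum difference, tumor against wild-type liver gave 9 G1/S members higher and 2 lower, 10 replication members higher and 3 lower, and 19 mitotic members higher and 1 lower, where 33.2% of all genes were higher and 30.2% lower. Adjacent liver against wild-type liver then gave 11 G1/S, 11 replication and 21 mitotic members higher and 2 replication members lower (34% and 28.9% of all genes), and tumor against adjacent liver 3 G1/S and 1 mitotic member higher and 7 G1/S, 10 replication and 4 mitotic members lower (20.1% and 25.1% of all genes). With a minimum of 1.5, tumor against wild-type liver gave 3 G1/S members and 1 replication member higher and 1 lower, adjacent liver 3 replication members higher, and tumor against adjacent liver 0 G1/S and 0 replication members lower. For this and the alternatives below, the shares of all genes called are not given here. With the mean of a gene's probe sets, mitotic members called higher fell to 9 in tumor and 10 in adjacent liver, and G1/S members to 3 and 2. The cause was not tested. Adjacent liver then had 0 replication members lower, and tumor against adjacent liver had 1 G1/S member higher, 1 lower and 0 replication members lower. With the most variable probe set, 5 replication members were higher in tumor, 1 G1/S member was lower in adjacent liver and 1 was higher in tumor against adjacent liver. A filter at the 60th percentile left 1 G1/S member lower in tumor against adjacent liver. Array medians made equal and array weights each gave 2 replication members lower there, and array weights 1 mitotic member.

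Leaving out each array in turn, tumor against adjacent liver gave 1 to 2 G1/S members, 1 to 2 replication members and 0 to 1 mitotic members lower. Mitotic members called higher then ranged from 16 to 17 in tumor and 18 to 19 in adjacent liver. Same-numbered samples did not deviate together (correlations from -0.11 to 0.14 over 9 pairs), and a paired fit with the replicate block left every count by role as it was, for example 5, 3 and 17 members higher in tumor.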
